A study of Homo sapiens with 6 samples.

Results

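The transcripts of 8 genes were followed in HSC-4 cells treated with the γ-secretase inhibitor DAPT, namely the metalloproteinase inhibitors *TIMP1*, *TIMP2*, *TIMP3* and *TIMP4*, the plasminogen activators *PLAU* and *PLAT*, the receptor *PLAUR* and the activator inhibitor *SERPINE2*. They were taken by their current symbols from the 58884 genes of the deposited read counts, and all 8 were found. HSC-4 cells are a long-cultured line from a human squamous carcinoma of the mouth, and DAPT blocks the protease that cuts Notch receptors free from the membrane. The 3 DAPT libraries came from cells given 50 µM DAPT for 24 h. The 3 control libraries came from cells that, by the methods, received DMSO as the vehicle, and their count columns carry the letters GM. If GM stands for growth medium without DMSO, effects of DAPT and of its vehicle cannot be told apart. All 6 libraries came from 1 cell line, no source says that replicates were cultured independently, and p-values measure the spread between these libraries only.

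TIMPs bind the active site of matrix metalloproteinases (MMPs) and thereby limit the breakdown of extracellular matrix. In the plasminogen activator system, urokinase (*PLAU*) and tissue-type activator (*PLAT*) cut plasminogen into plasmin, a protease that degrades fibrin and can activate several pro-MMPs. The urokinase receptor holds urokinase at the cell surface, and serpins such as protease nexin-1 (*SERPINE2*) inactivate the activators. Both systems are widely studied in the invasion of squamous carcinomas.

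Total counts ran from 12276313 to 16317672 per library, and at this depth 3 reads, taken as the smallest signal, amount to between 0.184 and 0.244 CPM (counts scaled to a common library total). The Notch target *HES1* was lower with DAPT (log2 fold change -0.77, edgeR adjusted p = 7.2e-08), as were *HES2* (-2.45), *HES4* (-1.48) and *HEY1* (-1.98). Of 8 markers of squamous epithelium, 7 lay above 10 CPM in every library, the exception being *KRT14*, and their sum was 5186 to 5361 CPM in controls and 3339 to 3479 CPM with DAPT. The lower sum came mostly from *KRT5* (means of 2701 and 1315 CPM). *KRT14* (log2 fold change -2.79), *KRT6A* (-1.48), *KRT17* (-0.88) and *TP63* (-0.58) were lower as well. The value of *KRT14* rested on only 36 to 49 reads per control library and 0 to 11 per DAPT library. In contrast, *CDH1* and *EPCAM* rose (0.27 each) and *DSG3* did not pass the test. Of 4 leukocyte markers only *CD14* was expressed above 1 CPM, and the 5 endothelial markers summed to at most 2.92 CPM. Control replicate 1 stood apart in 7 of 7 fibroblast markers, which summed to 566 CPM there, 57.4 and 58.4 CPM in the other controls, and 50.0 to 55.2 CPM with DAPT. *COL3A1* had 491 reads in that library and at most 4 in any other, while *DCN* had 329 and at most 2. The part of these transcripts in the results was not tested. Values for the 8 genes and counts for the lists of related genes are therefore also given without this library.

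All 8 genes passed the filter on low counts. With edgeR's quasi-likelihood test, adjusted over 15001 genes by the Benjamini-Hochberg method, 1 of the 8 (*PLAU*) was higher with DAPT and 2 (*PLAT* and *SERPINE2*) were lower at an adjusted p under 0.05. Among all tested genes, 35.2% passed this threshold, 17.2% as higher and 18.0% as lower, so the count of 3 of 8 lies near the background. Without control replicate 1, 1 was higher and 3 were lower (*TIMP3* in addition), where 37.1% of all genes passed, 18.0% as higher and 19.1% as lower. The median log2 fold change of the 8 genes was -0.11, against 0.01 for all tested genes, and none of the 8 reached a 2-fold change. Of the genes called over the whole table, 48.7% were higher with DAPT, and 61.5% when TMM factors were left out of the scaling. In bulk RNA, a difference in the share of cells that express a gene and one in RNA per cell cannot be told apart.

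**Figure D1:**
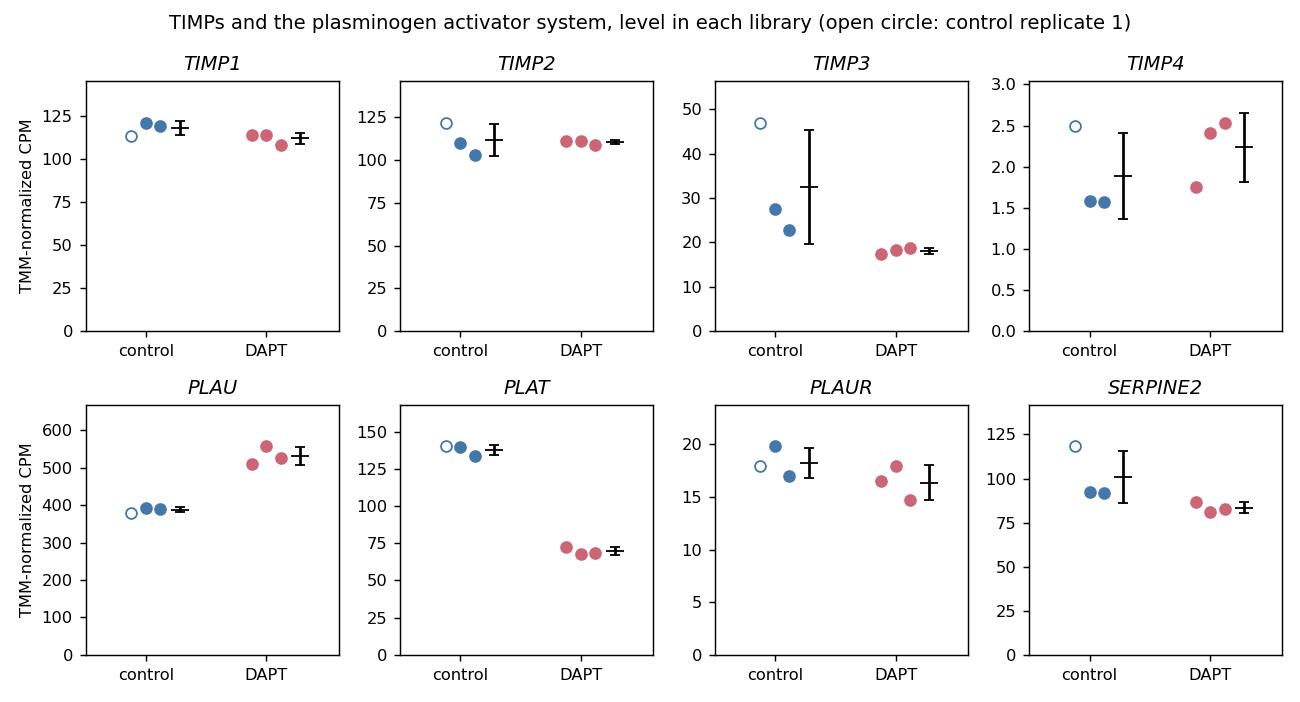
Level of each of the 8 genes in TMM-normalized CPM (y axis, from 0) in the 3 control and 3 DAPT libraries. Points are libraries, the open circle is control replicate 1, and bars are the mean ± SD (n = 3). *PLAT* and *PLAU* separate fully in opposite directions. Control replicate 1 is the highest library for *TIMP2*, *TIMP3* and *SERPINE2*, and the highest control for *TIMP4*.

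Tissue-type plasminogen activator (*PLAT*, ENSG00000104368; GRCh38 chromosome 8, 42175233 to 42207724) showed the largest fold change and the smallest adjusted p of the 8 genes. Its transcripts were at 140.0, 139.6 and 133.7 CPM in control replicates 1, 2 and 3, and at 72.7, 68.1 and 68.8 CPM in DAPT replicates 1, 2 and 3. The groups were far apart, and the spread within each was small. The mean fell by 49.3%, from 138 ± 3.53 to 69.8 ± 2.49 CPM (SD, n = 3 each). On the log2 scale the fold change was -0.98 with a standard error of 0.05 (edgeR adjusted p = 3.59e-12). Leaving out any single library gave values from -1.01 to -0.96, and -0.97 without control replicate 1. The read counts behind it were 1614 to 2248 in controls and 895 to 1119 with DAPT. Over the 6 libraries and 10140 genes with a mean of at least 10 CPM, the genes whose log2 CPM followed *PLAT* most closely were *GALNT14* (Pearson's r = 0.9994), *SERPINB3* (r = 0.999) and *CYP24A1* (r = 0.999), all lower with DAPT. Such values rest largely on the step between the groups, and *SERPINB3* shares sequence with *SERPINB4*, so its reads are uncertain.

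Urokinase (*PLAU*, ENSG00000122861; chromosome 10, 73909177 to 73917496) moved the other way. The controls held 380, 393 and 388 CPM and the DAPT libraries 511, 557 and 526 CPM in the order of their replicates. Every DAPT library lay above every control. The mean rose 1.37-fold, from 387 ± 6.76 to 531 ± 23.4 CPM (SD, n = 3 each). This was 0.46 on the log2 scale with a standard error of 0.05 (edgeR adjusted p = 1.87e-07). Without control replicate 1 it was 0.44, and over all omissions of a library it ran from 0.42 to 0.48. On the opposite strand, *C10orf55* covers 31.1% of the exonic bases of *PLAU*. Reads were counted by strand, and *C10orf55* held only 50 to 71 reads per library against 4689 to 7860 for *PLAU*. The genes with the most similar pattern over the 6 libraries were *RNF6* (r = 0.9988), *STC2* (r = 0.9982) and the pseudogene *CUTALP* (r = 0.9981), all higher with DAPT.

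**Figure D2:**
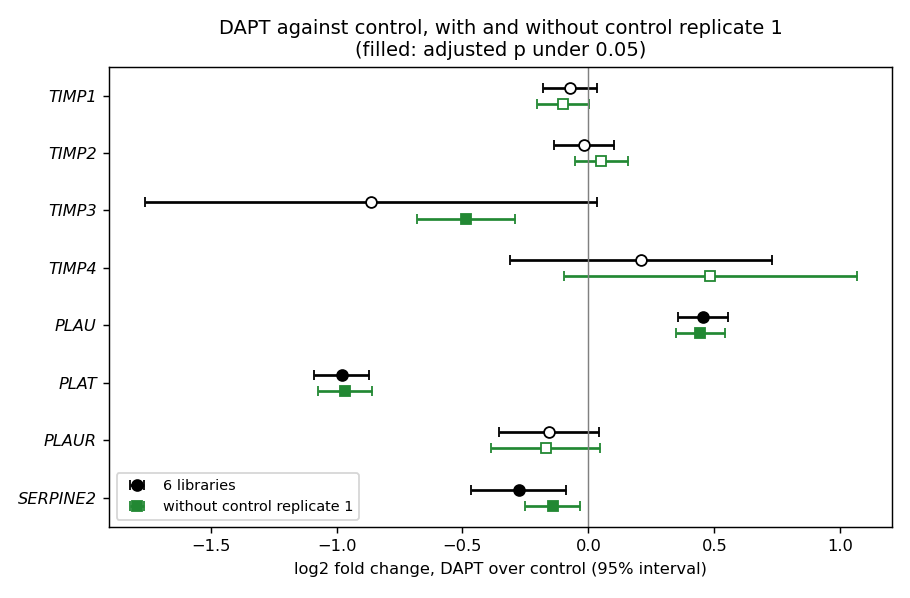
Log2 fold change of DAPT over control for the 8 genes (x axis) with 95% intervals from edgeR, in all 6 libraries (circles) and without control replicate 1 (squares). Filled symbols had an adjusted p under 0.05. *PLAT*, at -0.98 and -0.97, and *PLAU*, at 0.46 and 0.44, hardly move between the fits, whereas *TIMP3* goes from -0.86 to -0.49 with a much narrower interval.

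The urokinase receptor gene *PLAUR* (ENSG00000011422; chromosome 19, 43646095 to 43670547) did not pass the test. It was at 17.9, 19.8 and 17.0 CPM in controls and at 16.5, 17.9 and 14.7 CPM with DAPT, so the groups overlapped. The log2 fold change was -0.16 with a 95% interval from -0.35 to 0.04 (edgeR adjusted p = 0.216), and -0.17 without control replicate 1. It had 191 to 288 reads per library, and the part of read depth in this result was not tested. Scaled to exonic length, *PLAUR* transcripts amounted to 3.12% ± 0.220 of *PLAU* transcripts in controls and 2.04% ± 0.166 with DAPT (SD, n = 3 each). The lowest control (2.89%) lay above the highest DAPT library (2.14%). This percentage also carries the rise of *PLAU* and was not tested, so it does not show a change of *PLAUR* itself.

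RefSeq windows of 250 bases before to 50 bases after a gene start (GRCh38.p14) were found for 6 of the 8 genes, 8 windows in all, with 2 each for *PLAU* and *SERPINE2*. *TIMP2* and *PLAT* had no entry. Both strands were searched for the core of the site bound by RBPJ, the DNA-binding partner of Notch (TGGGAA), and for the AP-1 site (TGANTCA). The RBPJ core occurred in 1 *PLAU* window, at position -220 from the start on the reverse strand, and in that of *TIMP4*, at position 3. No window held both motifs. The AP-1 site occurred in the *PLAUR* window, at position -186. Over all 35116 windows of this length, 24.0% held the RBPJ core and 7.71% the AP-1 site. The bases upstream of both *PLAU* starts and of the *PLAUR* start are shown, since these genes encode enzyme and receptor. Of these genes only *PLAU* passed the test, and its change was not compared with that of *PLAUR*. Capitals mark the match, each sequence runs 5′ to 3′ in the direction of its gene, and a match is a run of letters that was not tested for binding.
*PLAU* upstream start, chr10:73910360-73910609, plus strand: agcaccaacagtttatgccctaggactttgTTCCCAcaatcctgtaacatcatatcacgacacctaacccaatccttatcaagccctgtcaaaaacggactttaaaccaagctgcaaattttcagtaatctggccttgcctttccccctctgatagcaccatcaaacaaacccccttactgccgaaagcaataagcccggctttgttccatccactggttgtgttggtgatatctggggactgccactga
*PLAU* downstream start, chr10:73910882-73911131, plus strand: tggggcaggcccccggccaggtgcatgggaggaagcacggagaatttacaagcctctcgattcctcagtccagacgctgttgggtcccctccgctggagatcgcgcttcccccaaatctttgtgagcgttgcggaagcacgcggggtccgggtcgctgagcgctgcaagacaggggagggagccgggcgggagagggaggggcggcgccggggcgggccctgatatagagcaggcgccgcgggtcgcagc
*PLAUR*, chr19:43670170-43670419, minus strand: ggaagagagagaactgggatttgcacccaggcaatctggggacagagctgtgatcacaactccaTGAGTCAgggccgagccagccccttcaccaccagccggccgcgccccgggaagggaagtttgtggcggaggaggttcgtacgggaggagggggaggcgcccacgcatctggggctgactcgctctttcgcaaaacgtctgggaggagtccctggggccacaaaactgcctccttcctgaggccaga

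Protease nexin-1 (*SERPINE2*, ENSG00000135919; chromosome 2, 223975045 to 224039318) inhibits urokinase, tissue-type activator, plasmin and thrombin. It was at 118 CPM in control replicate 1, at 92.6 and 91.9 CPM in the other controls, and at 86.7, 81.0 and 82.7 CPM with DAPT. The groups did not overlap, but control replicate 1 lay far above its peers. The log2 fold change was -0.28 (standard error 0.09, edgeR adjusted p = 0.0256), and without control replicate 1 it was -0.14 (adjusted p = 0.0351). Scaling without TMM factors gave an edgeR adjusted p of 0.0588, and leaving out DAPT replicate 1, 2 or 3 gave 0.0800, 0.0894 and 0.0804, so the call was lost in these fits. In the 5 libraries other than control replicate 1, the mean fell by 9.53%, from 92.3 to 83.5 CPM. What the fibroblast transcripts of control replicate 1 add to its *SERPINE2* value was not tested.

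**Figure D3:**
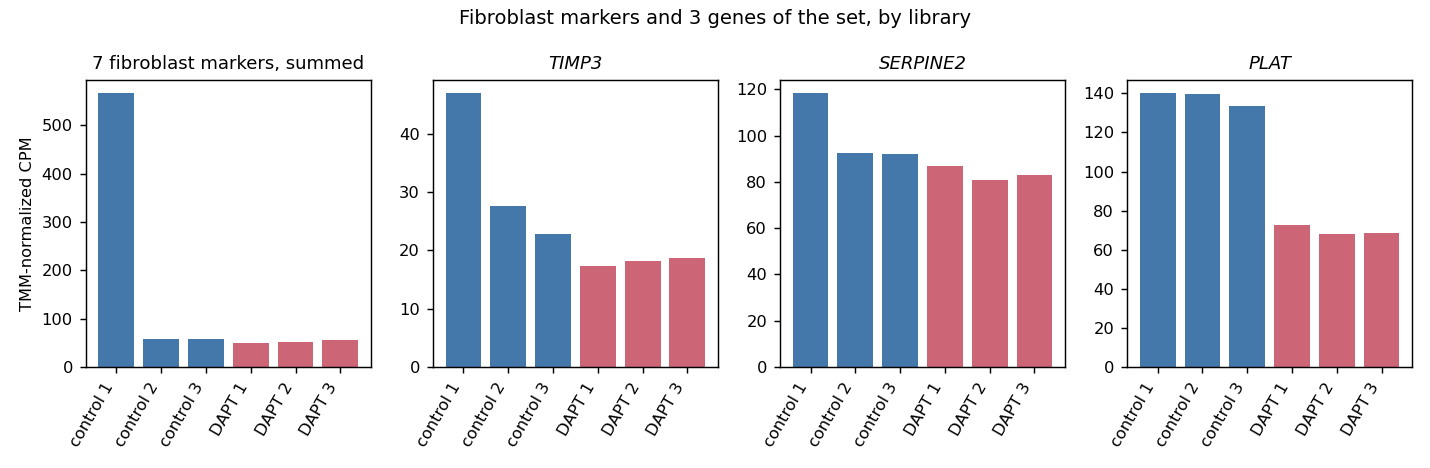
TMM-normalized CPM (y axes, from 0) in each of the 6 libraries for the sum of 7 fibroblast markers and for *TIMP3*, *SERPINE2* and *PLAT*. Bars are single libraries. The fibroblast sum of 566 CPM in control replicate 1 goes with the highest *TIMP3* and *SERPINE2* values, while *PLAT* is alike in the 3 controls.

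*TIMP3* (ENSG00000100234; chromosome 22, 32801701 to 32863043), whose protein binds to the matrix and also inhibits ADAM17, depended most on that library. Control replicate 1 held 47.0 CPM, the other controls 27.6 and 22.9 CPM, and the DAPT libraries 17.3, 18.3 and 18.7 CPM. Every DAPT library was below every control, with control replicate 1 farthest from them. With all 6 libraries the log2 fold change was -0.86 with a 95% interval from -1.76 to 0.03 (edgeR adjusted p = 0.123). Without control replicate 1 it was -0.49 with an interval from -0.68 to -0.29 (edgeR adjusted p = 2.16e-04), a mean of 25.2 against 18.1 CPM. In those 5 libraries *TIMP3* fell by 28.2% with DAPT. With all 6 libraries, DESeq2 gave an adjusted p of 0.0425 and edgeR's fit that is not robust gave 0.00159.

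*TIMP1* (ENSG00000102265; chromosome X, 47582408 to 47586789) encodes a secreted inhibitor of most MMPs and was the most abundant TIMP. The controls held 113, 121 and 119 CPM and the DAPT libraries 114, 114 and 108 CPM. The groups overlapped through control replicate 1. The log2 fold change was -0.07, its 95% interval ran from -0.18 to 0.03, and it did not pass the test (edgeR adjusted p = 0.293). Without control replicate 1 it was -0.10 (interval -0.20 to 0.00, edgeR adjusted p = 0.113). With 1409 to 1816 reads per library behind it, *TIMP1* had narrow intervals in both fits. *TIMP1* lies within *SYN1*, which runs on the opposite strand and held at most 2 reads in any library.

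*TIMP2* (ENSG00000035862; chromosome 17, 78852977 to 78925387), which inhibits MMP2 and also takes part in its activation, did not pass the test either. Control values of 122, 110 and 103 CPM enclosed the DAPT values of 111, 111 and 109 CPM. The log2 fold change was -0.02 (95% interval -0.14 to 0.10, edgeR adjusted p = 0.834), and its sign turned to 0.05 without control replicate 1 and to 0.03 when TMM factors were left out. On the same strand, *CEP295NL* covers 3.52% of its exonic bases, where reads of either gene were not counted, and held at most 2 reads.

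*TIMP4* (ENSG00000157150; chromosome 3, 12153068 to 12158912) was the rarest of the 8, with 19 to 40 reads per library. It was at 2.49, 1.59 and 1.57 CPM in controls and at 1.75, 2.41 and 2.54 CPM with DAPT. The groups overlapped, again through control replicate 1. The log2 fold change was 0.21 with a 95% interval from -0.31 to 0.73 (edgeR adjusted p = 0.554), and 0.48 without control replicate 1 (interval -0.10 to 1.07, edgeR adjusted p = 0.187). Without that library its DAPT values all lay above the other controls, but the change did not pass the test. The part of read depth in this was not tested. Its host gene *SYN2*, on the opposite strand, held at most 2 reads, and *SYN3*, which spans *TIMP3*, held 0.

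Levels of different genes were compared as CPM per kilobase of exonic length. In controls the order was *PLAU* (131 ± 2.29), *TIMP1* (81.4 ± 2.87), *PLAT* (20.8 ± 0.534), *TIMP2* (19.8 ± 1.68), *SERPINE2* (11.3 ± 1.67), *TIMP3* (7.05 ± 2.77), *PLAUR* (4.09 ± 0.320) and *TIMP4* (1.58 ± 0.440; SD, n = 3 each). Of the neighbours in this order, only the ranges of *PLAT* and *TIMP2* overlapped. *TIMP3* in control replicate 1 (10.2) came close to the lowest *SERPINE2* value (10.3). With DAPT, *PLAU* stood at 180 ± 7.94, *TIMP1* at 77.4 ± 2.19, *TIMP2* at 19.6 ± 0.236, *PLAT* at 10.6 ± 0.376, *SERPINE2* at 9.32 ± 0.330, *TIMP3* at 3.93 ± 0.148, *PLAUR* at 3.67 ± 0.365 and *TIMP4* at 1.87 ± 0.352 CPM per kilobase. *PLAT* lay below *TIMP2* in each DAPT library, and the ranges of *TIMP3* and *PLAUR* overlapped there. *PLAU* and *TIMP1* lay at percentiles 98.8 and 97.0 of all tested genes by mean level, and *TIMP4* at 26.9. The length counted is the union of all annotated exons, which is longer than any single transcript and lowers these levels for genes with many isoforms.

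Within the TIMP family, *TIMP1* made up 74.2% ± 3.88 of the summed level in controls and 75.3% ± 0.649 with DAPT (SD, n = 3 each). The share of *TIMP2* was 18.0% and 19.1%, and that of *TIMP4* 1.43% and 1.82%. The share of *TIMP3* was 9.10% in control replicate 1, 5.42% and 4.64% in the other controls, and 3.64% to 4.04% with DAPT. The summed level of the 4 genes was 107 to 112 CPM per kilobase in controls and 100.4 to 104 with DAPT, ranges that did not overlap.

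Since *PLAU* rose and *PLAT* fell, the ratio between the activators necessarily differed more between the groups than either gene. Per kilobase, *PLAU* exceeded *PLAT* by 6.09, 6.32 and 6.52 times in the controls and by 15.8, 18.3 and 17.2 times with DAPT. This ratio is built from genes whose single tests are given here and was not tested again, and a transcript ratio says nothing of active enzyme.

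**Figure D4:**
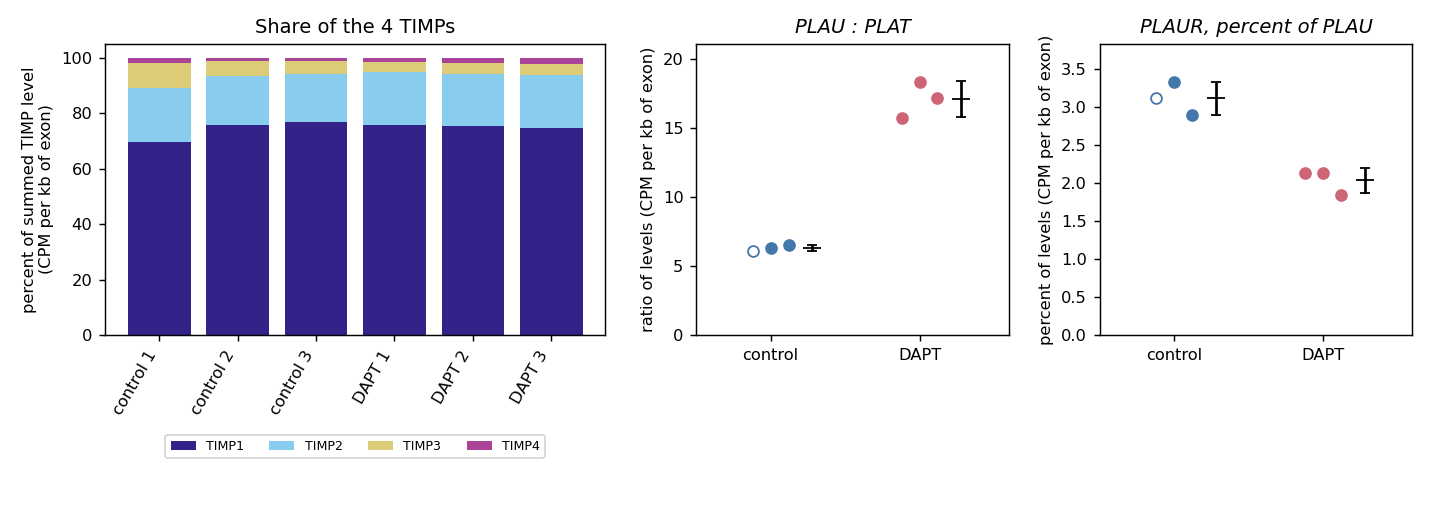
Left, percent of the summed *TIMP* level (CPM per kilobase of exon) in each of the 6 libraries. Middle, ratio of *PLAU* to *PLAT*, and right, *PLAUR* as a percent of *PLAU*, per library (points, open circle control replicate 1) with mean ± SD (n = 3). *TIMP1* holds 69.7% to 77.0% throughout, and the ratio of *PLAU* to *PLAT* is at most 6.52 in controls and at least 15.8 with DAPT.

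Other genes of the plasminogen pathway were read from a list of 36 activators, inhibitors, receptors and partners, of which 23 were tested. With DAPT, 3 of the 23 rose and 13 fell, beside 35.2% called among all genes, 17.2% as higher and 18.0% as lower. The median over the list was -0.16 on the log2 scale, against 0.01 for all genes. When control replicate 1 was left out, 37.1% of all genes were called, 18.0% as higher and 19.1% as lower. On the list, 4 then rose and 12 fell, with a median of -0.14. The genes behind this shift, singled out after their values were seen, were the integrin gene *ITGB1* and the collagen receptor gene *MRC2*. The edgeR adjusted p of *ITGB1* went from 0.0976 to 0.00289 without that library, and that of *MRC2* from 0.0301 to 0.0715. *SERPINA5*, the protein C inhibitor, fell by 1.52 on the log2 scale from only 16 to 30 reads per control library. *F12*, which encodes coagulation factor XII, fell by 0.72. The genes that rose were *SERPINI1*, a neuronal inhibitor of tissue-type activator (log2 fold change 0.62), *IGF2R*, a receptor that binds plasminogen and the urokinase receptor (0.41), and *MET*, the receptor of the growth factor that plasminogen activators can release from its precursor (0.18). *SERPINI1* passed in 2 of the 6 fits that left out a library. Leaving out DAPT replicate 2 reduced the 16 genes to 10.

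Plasminogen itself (*PLG*) had 0 reads in every library, and *SERPINB2*, the gene of PAI-2, had 6 to 10 reads in controls and 0 to 2 with DAPT, too few for the test. Cell surface proteins that bind plasminogen were singled out after their values were seen. *ENO1* had a log2 fold change of -0.49, *S100A10* of -0.42 and *ANXA2* of -0.32, with edgeR adjusted p of 4.05e-08, 9.41e-07 and 1.77e-05. The dedicated plasminogen receptor gene *PLGRKT* did not pass (-0.04, edgeR adjusted p = 0.727).

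On a list of 26 proteases taken as TIMP targets from general knowledge, 19 were tested. Inhibition by TIMPs was not checked for each of them. With DAPT, 10 fell and 1 rose, beside 18.0% lower and 17.2% higher among all genes. The median log2 fold change was -0.91. Without control replicate 1 the median was -0.44 over 20 tested genes, with 11 lower and 1 higher, beside 19.1% and 18.0% of all genes. The lowest were *MMP7* (-2.81), *MMP10* (-2.42) and *MMP1* (-2.05). *MMP7* had at most 18 reads per library. Both gelatinases were lower. *MMP9* fell from 36 to 39 reads in controls to 17 to 20 reads with DAPT (log2 fold change -1.04, edgeR adjusted p = 0.00181). *MMP2*, named after its values were seen, was at -0.93 (edgeR adjusted p = 0.00143), and at -0.75 without control replicate 1. *ADAM10*, a sheddase of Notch receptors, was the gene that rose (0.13, edgeR adjusted p = 0.0416), a call kept in 1 of the 6 fits that left out a library. *ADAM17* was at -0.09 and did not pass (edgeR adjusted p = 0.163). Of the genes that fell, *MMP11* (-0.35) fell least, and *ADAM19* stood at the list's median. *MMP11* passed in 2 of the 6 fits that left out a library.

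A list of 11 further inhibitors and regulators of extracellular proteolysis had 9 tested genes, of which 0 rose and 4 fell (median log2 fold change -0.60). Among all genes 35.2% were called, 17.2% as higher and 18.0% as lower. With control replicate 1 left out, 1 rose and 3 fell (median -0.51), beside 37.1% called among all genes, 18.0% as higher and 19.1% as lower. The gene that rose was the proteoglycan gene *SPOCK2* (0.50, edgeR adjusted p = 0.0456), named after its values were seen. The 4 were *PCOLCE2* (-1.07), *THBS1* (-0.71), *SPOCK1* (-0.63) and *TFPI* (-0.49), of which *PCOLCE2* encodes an enhancer of procollagen processing, *THBS1* the matrix glycoprotein thrombospondin-1, *SPOCK1* a proteoglycan and *TFPI* the inhibitor of the tissue factor pathway. Without DAPT replicate 2 there were 2, and without control replicate 1 *TFPI* did not pass (edgeR adjusted p = 0.0928). *THBS1* was at 354 CPM in control replicate 1 and at 237 and 261 CPM in the other controls. It passed in 2 of the 6 fits that left out a library. *RECK*, a membrane-anchored MMP inhibitor, did not pass (0.05, edgeR adjusted p = 0.776). *TFPI2*, a plasmin inhibitor, had 100 reads in control replicate 1 and 0 in the other 5 libraries, and was not tested.

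**Figure D5:**
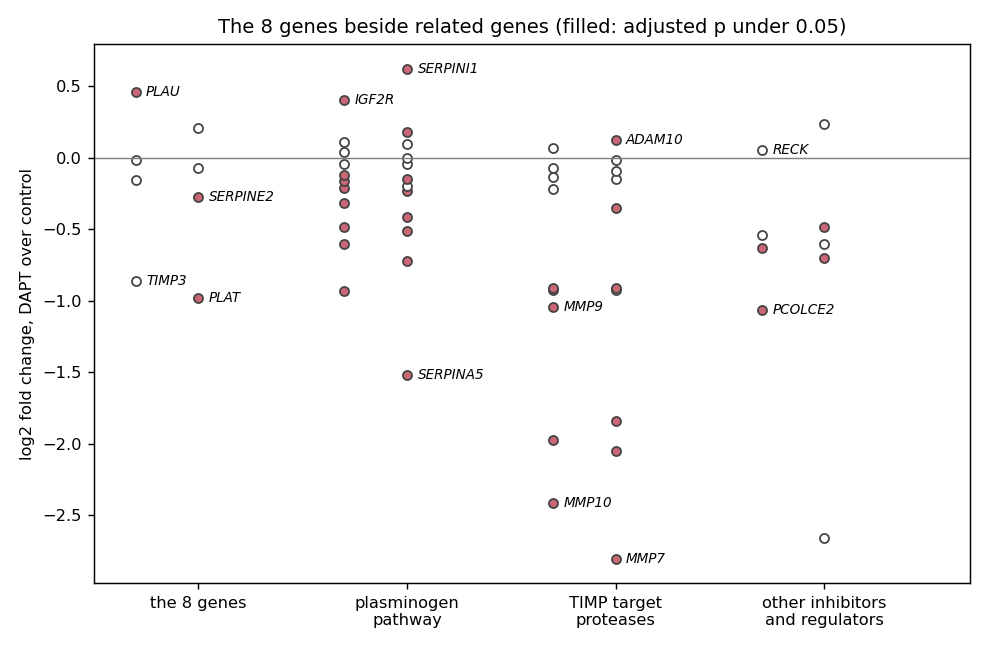
Log2 fold change of DAPT over control (y axis) for the 8 genes and for the tested genes of 3 lists of related genes. Each point is a gene, and filled points had an edgeR adjusted p under 0.05. The proteases listed as TIMP targets reach -2.81, while the 8 genes stay between -0.98 and 0.46.

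In 4 of the 8 genes (*TIMP3*, *PLAU*, *PLAT* and *SERPINE2*) the 3 DAPT libraries lay entirely on one side of the 3 controls. Over all tested genes this share was 46.3%. Measured as the coefficient of variation among controls, *TIMP3* (39.3%), *TIMP4* (27.9%) and *SERPINE2* (14.8%) varied most and *PLAU* (1.75%), *PLAT* (2.57%) and *TIMP1* (3.52%) least. Between the other 2 controls alone the value was 13.2% for *TIMP3*, 0.674% for *TIMP4* and 0.494% for *SERPINE2*.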

How the data were processed

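Total RNA from 6 HSC-4 samples was made into directional mRNA libraries and sequenced from a single end. Per the file headers, the authors counted reads with featureCounts 1.6.3 on the exons of Ensembl release 96 genes (GRCh38), on the forward strand, after trimming and HISAT2 mapping. They deposited these raw read counts without normalization. The labels name HTSeq and DESeq2 as well, while the methods name edgeR. Reads that mapped to several places or overlapped several genes were not counted by the program's defaults.

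Symbols came from GENCODE release 44 for 58472 of 58884 genes. Groups and replicate numbers came from sample titles. edgeR 4.0.16 in R 4.3.3 was run with its group filter (minimum count 10), TMM factors (0.98 to 1.02), a robust quasi-likelihood test and p-values adjusted by Benjamini-Hochberg over 15001 genes. Levels are TMM-normalized CPM, and standard errors were derived from the F statistic. The 8 genes, the gene lists (written from general knowledge), the motifs and the tests were chosen with earlier results of these data known. Named genes were the 8, the 3 highest and 3 lowest calls of each list, fixed individual genes, markers, overlapping genes and, for the 2 genes of smallest adjusted p, the 3 genes with the highest correlation of log2(CPM + 0.5). Exceptions are marked, and 1 gene of the pathway list that the rule names is not reported here. Alternatives were DESeq2 1.42.0, RLE and library size scaling, other filters, a fit that is not robust, the replicate block, an adjusted p under 0.01 and omission of each library. The test was tried on counts simulated for 15001 genes with a set changed 2-fold, and over 3 draws it recovered 93.3% of that set, while 3.27% of its calls were unchanged genes. No pair of libraries agreed within sampling noise. Floors based on counts cover counting error only, whereas the edgeR intervals also include the spread between these libraries.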

Additional observations from a re-analysis of the deposited data

How the results depend on the processing

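Of the 8 log2 fold changes, *PLAT* and *PLAU* kept their direction and an adjusted p under 0.05 in all alternatives tried. Of 112 comparisons of a gene with an alternative, 102 kept direction and side of the threshold, 5 (all *SERPINE2*) lost it, 3 (all *TIMP3*) gained it, and *TIMP2* changed sign in 2, to 0.028 under scaling by library size alone and to 0.051 without control replicate 1 (-0.076 to 0.051 over all omissions of a library). The count of lower genes among the 8 was 2, and 1 under scaling by library size alone or at an adjusted p under 0.01, with a range of 1 to 3 over omissions of a library. At an adjusted p under 0.01, 10 of 16 plasminogen pathway genes and 2 of 4 further inhibitors passed, and over omissions of a library these counts ran from 10 to 16 and from 2 to 4. The causes were not tested.

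With a replicate block in the model, 3 of the 8 genes passed as before, and 15, 12 and 6 genes of the 3 lists against 16, 11 and 4. Same-numbered libraries are not stated to be handled together, their deviations from the group means correlated at 0.0245, 0.0442 and -0.0116 over 14199 genes, and 4 of 6 libraries correlated best with their own number. *TIMP4*, *MMP7*, *SERPINA5* and *SERPINB2* rested on few reads, at most 40 in any library. Of these, *MMP7* and *SERPINA5* still passed in all 6 fits that left out a library.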
